A study of Bos taurus with 4 samples.

Results

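Type I and type III collagen, SPARC and decorin are proteins of the connective tissue matrix, and 5 of the 24616 gene rows of the table stand for their genes: COL1A1 (ENSBTAG00000013103), COL1A2 (ENSBTAG00000013472), COL3A1 (ENSBTAG00000021466), SPARC (ENSBTAG00000014835) and DCN (ENSBTAG00000003505). The rows were taken by identifier from a list drawn up for their known function as fibroblast matrix genes; the rule uses no measured value, but it was written with earlier results of these data known. The symbols come with that list, since the table gives identifiers only and the available RefSeq annotation of assembly ARS-UCD2.0 holds all 5 symbols but no Ensembl identifiers.

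Messenger RNA was sequenced in 4 bovine libraries, 2 from mammary tissue of females and 2 from lymphocytes of males, all of the breed labelled "Hostein". Breed was thus shared by both groups, whereas tissue and sex changed together and cannot be told apart. The titles of the mammary libraries alone end in "dup", whose meaning is not given. Neither age, stage of lactation nor any treatment is labelled, and no label ties the libraries to individual animals, so the p-values reflect only how much these libraries vary, which may be technical.

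Fibroblasts build the stroma that surrounds the ducts and alveoli of the mammary gland. They secrete procollagen chains that wind into a helix and, after trimming outside the cell, pack into fibrils: COL1A1 and COL1A2 encode the chains of type I collagen, and COL3A1 the single kind of chain of type III collagen, which often shares fibrils with type I. SPARC, also called osteonectin, is a matricellular glycoprotein that binds collagen and is made by endothelial cells and platelets as well as fibroblasts. DCN encodes decorin, a small leucine-rich proteoglycan that coats collagen fibrils and limits their width. Resting lymphocytes are not known as a source of fibrillar collagen.

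Values are FPKM, fragment numbers corrected for transcript length and library size, so that genes can be compared within a library. They summed to between 828745 and 1536182 over all rows of a library, and 15844 to 17953 rows were above 0. Read counts are not part of the table, depth is unknown, and no counting interval is given. Most rows were lower in mammary replicate 2 than in replicate 1: the median difference in log2(FPKM + 1) was -1.05 over the 12311 rows tested, those that reached 1 FPKM in at least 2 libraries.

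All 5 matrix genes were abundant in both mammary libraries and barely listed in both lymphocyte libraries. COL1A1 had 270.4 FPKM in mammary replicate 1 and 31.2 FPKM in replicate 2, against 0.0942 and 0.00715 FPKM in lymphocyte replicates 1 and 2. Its lowest mammary value was therefore 332-fold above its highest lymphocyte value. COL1A2, which encodes the partner chain, was at 322 and 33.8 FPKM in mammary tissue and at 0.128 and 0.0109 FPKM in lymphocytes, in the same order of replicates. The smallest fold between a mammary and a lymphocyte library was 264 for this gene. The groups did not overlap for either chain, and in each group replicate 1 was the higher library.

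COL3A1 was the highest of the 5 genes in both mammary libraries, at 689 and 62.0 FPKM. Its lymphocyte values were 0.123 and 0.00798 FPKM, so that the closest libraries of the groups still differed 504-fold. Type III collagen is the fine, pliable fibril of loose connective tissue, and its transcript stood at rank 101 of all rows in mammary replicate 1 and at rank 350 in mammary replicate 2. In lymphocyte replicate 2 only 0.39% of the rows above 0 had a lower value.

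SPARC had 382 and 58.7 FPKM in the mammary libraries, against 0.0954 and 0.0317 FPKM in lymphocytes, replicate 1 first. It had the smallest difference between replicates in mammary tissue and, of the 4 genes above 0 in both lymphocyte libraries, also there. The smallest fold between the groups was 615. DCN was at 559 and 49.7 FPKM in mammary tissue, at 0.0191 FPKM in lymphocyte replicate 1, and listed at 0 in lymphocyte replicate 2. Decorin transcript thus had the lowest lymphocyte level of the 5 in both libraries, and its smallest fold, against the only lymphocyte library above 0, was 2599. This was the 1 value of the 20 listed at 0, which may also be a failed estimate.

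**Figure D1:**
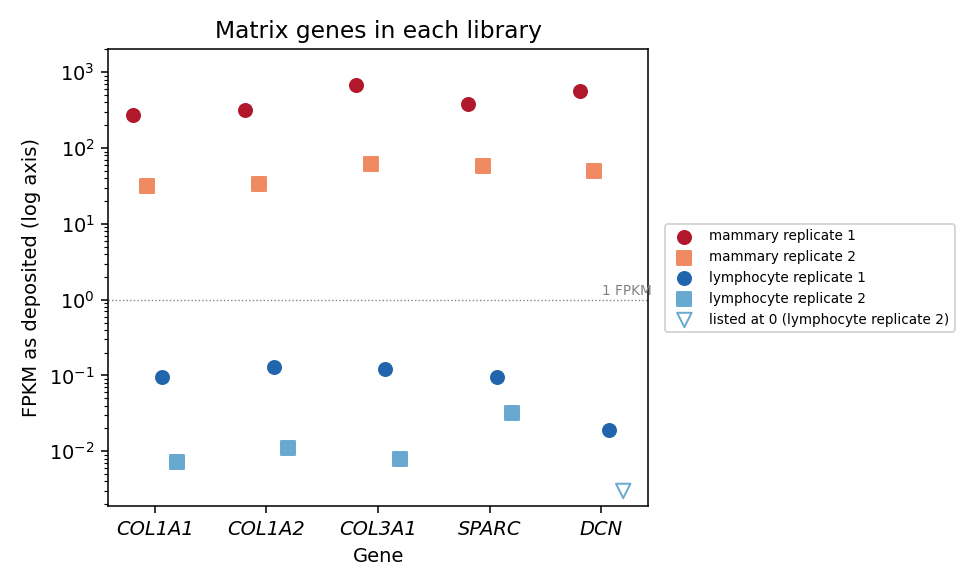
FPKM as deposited, on a log axis, for each of the 5 matrix genes, with 1 point per library; circles are replicate 1, squares replicate 2, and the open triangle marks DCN listed at 0. Every mammary point lies at 31.2 FPKM or more and every lymphocyte point at 0.128 FPKM or less, and replicate 1 lies above replicate 2 in both groups.

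The comparison of tissues asks by how much these genes differ between an organ with stroma and an immune cell type. On the log2(FPKM + 1) scale, which understates the change of rows near 0, the mean difference of mammary tissue over lymphocytes was 6.48 for COL1A1 (SE 0.85, limma adjusted p = 1.4e-11), 6.63 for COL1A2 (SE 0.86, adjusted p = 4.1e-12) and 7.62 for COL3A1 (SE 0.86, adjusted p = 6.6e-16). It was 7.15 for SPARC (SE 0.86, limma adjusted p = 4.8e-14) and 7.38 for DCN (SE 0.86, limma adjusted p = 5.8e-15). By size of the difference, the genes ranked between 14 (COL3A1) and 28 (COL1A1) of the 12311 rows tested. All 5 passed limma's moderated test at an adjusted p below 0.05, while 8.54% of all tested rows did so as higher in mammary tissue. All 5 also had both mammary libraries above both lymphocyte libraries, as did 13.7% of the tested rows. The genes entered the test through their mammary values alone, none reaching 1 FPKM in a lymphocyte library, so these counts do not stand as support of the difference.

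Those adjusted p-values lean on a spread pooled over all rows, and the matrix genes varied more than that. The spread typical of the tested rows was 0.84 on the log2 scale over both groups, whereas that of the matrix genes ran from 1.34 (SPARC) to 1.73 (DCN). The SD of the mammary pair alone ran from 1.90 (SPARC) to 2.45 (DCN). With each gene's own spread over both groups in place of the pooled one, the SE rose to between 1.34 (SPARC) and 1.73 (DCN), and the differences were 4.12 (COL1A2) to 5.33 (SPARC) times their SE. With 2 residual degrees of freedom, an unadjusted two-sided p below 0.05 needs a ratio of 4.30, which COL3A1 (4.41) and SPARC reached and COL1A1 (4.21), COL1A2 and DCN (4.26) did not. After median-of-ratios scaling, where a gene's own spread counts in limma's test, the differences were 7.03 (COL1A1), 7.19 (COL1A2), 8.18 (COL3A1), 7.72 (SPARC) and 7.93 (DCN), with limma adjusted p-values from 0.0080 (SPARC) to 0.011 (DCN). All 5 were called, against a background of 12.8% of rows. They were also called with a common FPKM total (background 8.73%) and after quantile normalization (background 11.2%).

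**Figure D2:**
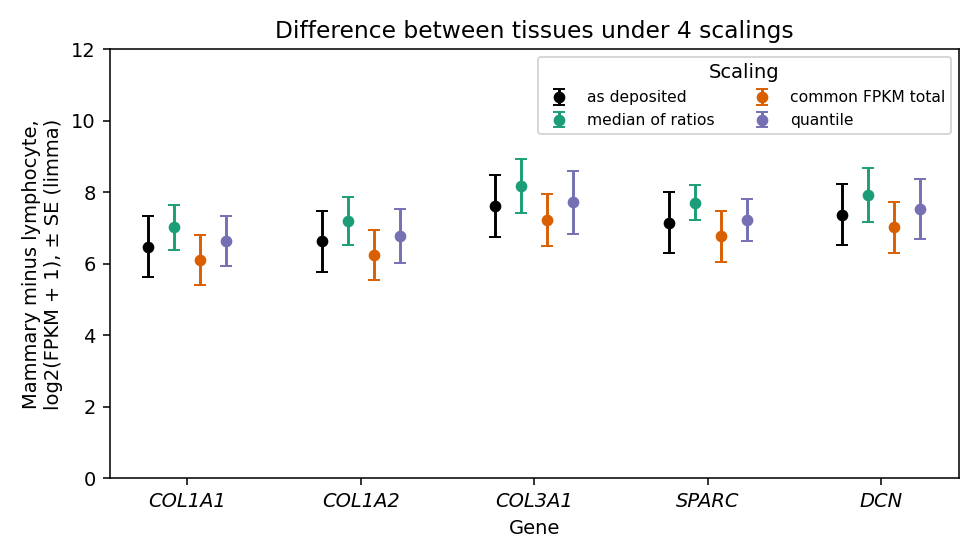
Difference of mammary tissue minus lymphocytes in log2(FPKM + 1) for each gene, as points with the limma SE as bars, under 4 scalings. The differences lie between 6.11 (COL1A1, common FPKM total) and 8.18 (COL3A1, median of ratios), and COL3A1 is the highest and COL1A1 the lowest gene under each of the 4.

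The call itself, unlike the direction, depended on the filter. With all 19337 rows above 0 in any library tested, the differences were the same but none of the 5 genes passed (limma adjusted p 0.084 for SPARC to 0.10 for COL1A1 and COL1A2), and the background of rows called higher in mammary tissue fell to 0.0207%. Under median-of-ratios scaling the calls were also lost without either lymphocyte library, where limma called 0 rows in all.

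Between the mammary libraries, all 5 genes were far lower in replicate 2. The FPKM of replicate 1 was 8.66 times that of replicate 2 for COL1A1, 9.53 times for COL1A2, 11.1 times for COL3A1, 6.52 times for SPARC and 11.2 times for DCN. Summed over the 5 genes, the level was 2222 FPKM in replicate 1 and 235 FPKM in replicate 2, or 0.145% and 0.0170% of the summed FPKM of each library. In bulk tissue, fewer stromal cells and less matrix RNA per stromal cell cannot be told apart.

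Most rows were lower in mammary replicate 2, but few by as much as the matrix genes. The log2(FPKM + 1) difference of replicate 2 minus replicate 1 was -3.07 for COL1A1, -3.21 for COL1A2, -3.45 for COL3A1, -2.68 for SPARC and -3.46 for DCN, against a median of -1.05 and quartiles of -1.43 and -0.64 over all tested rows. Only 53 of the 12311 tested rows, or 0.43%, were lowered at least as far as DCN, and 249 rows, or 2.02%, at least as far as SPARC, each count with the gene itself. Low rows cannot fall far on this scale, and among the 3223 tested rows with a mammary mean of 10 FPKM or more the shares were 1.49% for DCN, 1.52% for COL3A1, 2.33% for COL1A2, 3.16% for COL1A1 and 6.27% for SPARC. Rows faint in lymphocytes were more frequent among the steep falls. Of the 249 rows lowered at least as far as SPARC, 93, or 37.3%, stayed under 1 FPKM in each lymphocyte library. The share was 7.86% among all tested rows, which were not matched to the steep falls for mammary level. After median-of-ratios scaling, which takes out the shift of the median row, the differences were smaller and had the same sign, at -1.73 (COL1A1), -1.87 (COL1A2), -2.09 (COL3A1), -1.32 (SPARC) and -2.11 (DCN). These are differences between single libraries and carry no test.

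**Figure D3:**
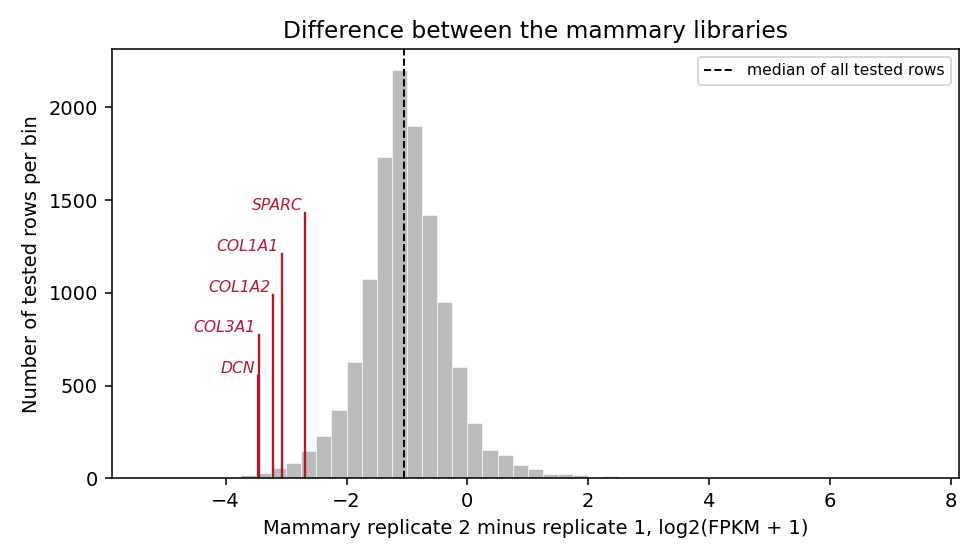
Histogram of the difference between mammary replicate 2 and replicate 1 in log2(FPKM + 1) over the 12311 tested rows, with red lines at the 5 matrix genes (line height has no meaning) and a dashed line at the median row. All 5 genes lie in the left tail, between -3.46 and -2.68, and the median row lies at -1.05.

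The size of the tissue difference depended on which mammary library was used. Without mammary replicate 1 the log2 difference was 4.94 for COL1A1, 5.02 for COL1A2, 5.89 for COL3A1, 5.81 for SPARC and 5.65 for DCN. Without mammary replicate 2 it was 8.01, 8.24, 9.34, 8.49 and 9.11 in the same order of genes. All 5 genes passed limma's test in both fits, with backgrounds of 8.72% and 9.64% of rows called higher in mammary tissue. The spread in these fits came from the lymphocyte libraries alone, and the lone mammary library was assumed to vary like them. The matrix genes' own lymphocyte spread lay near 0 (SD 0.019 for DCN to 0.11 for COL1A2). In the fits it was weighted with that of all rows, typically 0.49. Without lymphocyte replicate 1 or 2 all 5 genes passed where 0.301% and 0.357% of rows did, with the spread taken from the mammary pair. That spread was pooled over the mammary pairs of all rows, typically 1.334 and 1.332 without lymphocyte replicates 1 and 2. The SD of the matrix genes' own mammary pair was larger, from 1.90 (SPARC) to 2.45 (DCN). The pooled spread thus understates that of these genes, and these passes do not stand as support of the difference. The pseudocount of 1 FPKM holds every lymphocyte value of these genes near 0, so leaving out a lymphocyte library could hardly move the differences. As a plain FPKM ratio, mammary replicate 1 exceeded lymphocyte replicate 1 by 2870-fold for COL1A1 and lymphocyte replicate 2 by 37840-fold. The pseudocount itself moved the COL1A1 difference from 4.31 (at 5 FPKM) to 9.32 (at 0.1 FPKM).

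The proportions between the genes changed far less between the mammary libraries than their level. A ratio of genes within a library does not depend on how that library was scaled. The level also carries the shift that most rows shared (median -1.05), which cancels in a ratio. Ratios of other pairs of rows were not computed, so steady proportions are not shown to be particular to these genes. The ratio of COL1A1 to COL1A2, the chains of one protein, was 0.84 and 0.93 in mammary replicates 1 and 2. The ratio of COL3A1 to DCN was 1.23 and 1.25, the steadiest of the 10 pairs. Over all 10 pairs, the ratio changed between the mammary libraries by a factor of 1.01 to 1.72, with a median of 1.29. The factors of 1.72 and 1.70 belonged to SPARC with DCN and with COL3A1.

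The order of levels in mammary tissue was accordingly alike in both libraries, with 9 of the 10 pairs in the same order. COL3A1 stood highest and COL1A1 lowest in both, with COL1A2 next above COL1A1. DCN was above SPARC in replicate 1 and below it in replicate 2, so these neighbours cannot be ordered. COL1A2 was above COL1A1 in all 4 libraries, by a margin smaller than the difference between the replicates of either gene. SPARC made up 17.2% of the summed FPKM of the 5 genes in mammary replicate 1 and 24.9% in replicate 2, DCN 25.1% and 21.1%, and COL3A1 31.0% and 26.4%.

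The lymphocyte shares differed from the mammary ones and also between the lymphocyte replicates. They rest on sums of only 0.46 and 0.0577 FPKM in replicates 1 and 2, so a make-up of the lymphocyte signal is not established. In lymphocyte replicate 1, COL1A2 made up 27.8% of the sum of the 5 genes, COL3A1 26.8%, SPARC 20.8%, COL1A1 20.5% and DCN 4.16%. In lymphocyte replicate 2, SPARC alone made up 54.9%. The ratio of COL1A1 to COL1A2 was 0.74 and 0.66 there, within a factor of 1.41 of the mammary ratios across all 4 libraries, whereas the ratio of COL1A1 to SPARC moved by a factor of 4.37 and that of COL3A1 to SPARC by 7.15. Of the 6 pairs without DCN, 3 had the same order in all 4 libraries.

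Lymphocyte replicate 1 was higher than replicate 2 for every matrix gene, in contrast to most rows. Its FPKM was 13.2 times that of replicate 2 for COL1A1, 11.7 times for COL1A2, 15.4 times for COL3A1 and 3.01 times for SPARC. On the log2(FPKM + 1) scale, replicate 2 minus replicate 1 was only -0.16 (COL1A2) to -0.03 (DCN) for the matrix genes. The median tested row was 0.40 higher in lymphocyte replicate 2 on that scale. The sum of the 5 genes was 0.46 FPKM in replicate 1 and 0.0577 FPKM in replicate 2, and the number of fragments behind these values is not known. In replicate 1 the genes lay above 1.46% (DCN) to 11.0% (COL1A2) of the rows above 0, and in replicate 2 the 4 listed above 0 lay above 0.34% (COL1A1) to 3.60% (SPARC).

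**Figure D4:**
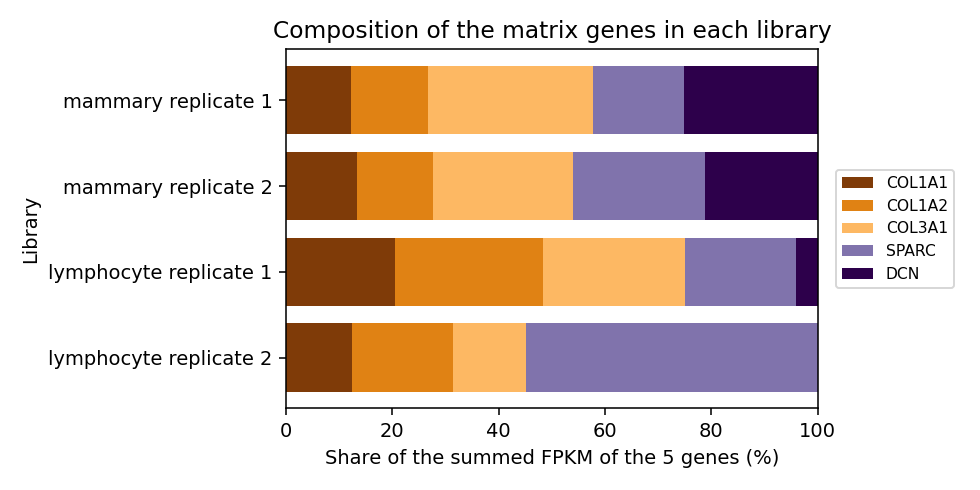
Share of each gene in the summed FPKM of the 5 matrix genes, in percent, with 1 bar per library. The mammary bars are alike (COL3A1 31.0% and 26.4%), whereas DCN takes 4.16% of the bar of lymphocyte replicate 1 and SPARC 54.9% of that of lymphocyte replicate 2. The lymphocyte bars stand for sums of only 0.46 and 0.0577 FPKM in replicates 1 and 2.

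A broader set of 94 rows reached 10 FPKM in each mammary library and stayed under 1 FPKM in each lymphocyte library, and all 5 matrix genes were among them. Within the set they ranked 6 (COL3A1) to 11 (COL1A1) by level in mammary replicate 1 but only 19 (COL3A1) to 30 (COL1A1) in mammary replicate 2. The median row of the set was at 42.2 and 21.7 FPKM. The set was mixed in its difference between mammary libraries: 65 of the 94 rows were higher in replicate 1, and the extremes of replicate 2 minus replicate 1 were -5.05 and 6.63. The median difference was -0.69 and the quartiles were -2.33 and 0.27. Over all tested rows the median was -1.05, with quartiles of -1.43 and -0.64. Over those with a mammary mean of 10 FPKM or more it was -1.19, with quartiles of -1.71 and -0.65. The median row of the set was thus lowered less than the median tested row, while the set was more widely spread. Within the set, the matrix genes held ranks 6 (DCN) to 17 (SPARC) from the lower end of this difference. A fall at least as large as that of SPARC was seen in 17 of the 94 rows, or 18.1%, the 5 matrix genes included. The share was 2.02% among all tested rows and 6.27% among the 3223 tested rows with a mammary mean of 10 FPKM or more. The latter are closer to the set in level, and the cut is itself the value of a matrix gene. A high level in mammary tissue with a low one in lymphocytes thus did not go with a single direction between the mammary libraries.

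Over the 4 libraries, the matrix genes were also each other's near neighbours in profile. Likeness was the root mean square difference in log2(FPKM + 1) after each row was centred on its own mean, a measure that 4 points and the shared tissue contrast dominate. Of 12310 other rows, COL1A2 was the nearest to COL1A1 and COL1A1 the nearest to COL1A2, at 0.093. COL3A1 and DCN were likewise nearest to each other, at 0.12, and DCN was nearest to SPARC, at 0.30. The farthest of these neighbours was COL3A1 as seen from COL1A1, at rank 15. The 2 rows outside the matrix genes that were most like their mean profile were ENSBTAG00000001745 (221 and 30.4 FPKM in mammary tissue, 0.0226 and 0 in lymphocytes) and ENSBTAG00000010123 (255 and 22.0 FPKM in mammary tissue, listed at 0 in both lymphocyte libraries). The steep drop from mammary replicate 1 to replicate 2 is part of the profile by which these rows were picked, so sharing it is no finding. Neither row is paired with a symbol here.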

How the data were processed

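The table holds FPKM values that the authors deposited for 24616 Ensembl identifiers in 4 libraries; each column matched 1 sample title, and 0 columns were left unmapped. The submitters' processing notes name Trimmomatic 0.39, STAR, Cufflinks and UMD3.1; not given in the sources used here are their settings, the annotation release and the use of strand. Depth is unknown.

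Values were compared as log2(FPKM + 1) in rows that reached 1 FPKM in at least 2 libraries, with limma 3.58.1 in R 4.3.3 (tissue the only term, mean-variance trend, two-sided, Benjamini-Hochberg over all 12311 rows, threshold 0.05). The prior degrees of freedom came out infinite, so each row took the pooled spread. The step was tested on simulated data with the same spread for every row and no shift between libraries. That run therefore does not cover the larger spread of the matrix genes or the shift between the mammary libraries. Alternatives changed the pseudocount, filter, scaling, trend and libraries.

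The 5 genes and all lists were chosen with earlier results of these data known. Named beyond them were the 2 rows nearest in profile. A set of 14 lists of other matrix and cell type marker genes was not analysed here, because symbols could not be matched to identifiers, so the tissue labels were not checked against markers. Replicates are numbered in accession order.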

Additional observations from a re-analysis of the deposited data

How the results depend on the processing

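All 5 matrix genes kept their direction under the 16 alternatives run. The closest mammary and lymphocyte libraries differed at least 264-fold for every gene, so these alternatives could hardly reverse it. In fits of all 4 libraries, limma's test was missed only without the filter on low values (limma adjusted p 0.084 to 0.10). The differences there were 6.48, 6.63, 7.62, 7.15 and 7.38 for COL1A1, COL1A2, COL3A1, SPARC and DCN. With the filter, the genes entered through their mammary values alone, so the passes do not stand as support. Rows called higher in mammary tissue numbered 1030 and 1048 of 12311 at pseudocounts of 0.1 and 5 FPKM, and 892 without the trend. After median-of-ratios scaling, the differences in the same order of genes were 7.08, 7.26, 8.24, 7.76 and 7.94 without lymphocyte replicate 1. Without lymphocyte replicate 2 they were 6.98, 7.12, 8.11, 7.68 and 7.92. In those 2 fits the spread came from the mammary pair alone, and the lone lymphocyte library was assumed to vary like it; limma called 0 rows, with 2820 and 2967 at an unadjusted p below 0.05. Over all alternatives the differences ran from 4.31 (COL1A1) to 10.58 (DCN), both at other pseudocounts. Rows called higher in mammary tissue numbered 1051, and 4 without the filter, 383 with a filter at 5 FPKM, 37 to 1187 with 1 library left out, and 0 to 1820 with 1 left out after median-of-ratios scaling. Rows called higher in lymphocytes numbered 1312, and 1 without the filter, 5660 with a common FPKM total, 58 to 2754 with 1 library left out, and 0, 0, 245 and 729 with 1 left out after median-of-ratios scaling. The causes were not tested. Differences between the mammary libraries kept their sign under the 4 alternatives run for them, 2 scalings and 2 pseudocounts. No paired analysis was possible because the titles carry 4 different numbers.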
